A study of Mus musculus with 6 samples.

Results

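CC chemokines are small secreted proteins that guide leukocytes, named for a pair of adjacent cysteines near the start of the mature chain. The rule listed 10 of them, Ccl2, Ccl5, Ccl7, Ccl8, Ccl9, Ccl11, Ccl12, Ccl17, Ccl19 and Ccl20, by gene symbol. Of these, 9 have a row in the deposited table of 17525 genes, and Ccl19 was not analysed here. The table holds 3 scramble and 3 Sipa1 knockdown samples of cultured cardiac fibroblasts, grown without passaging from hearts of C57BL/6 mice aged 6 weeks. All 6 samples received a lentivirus with polybrene at 8 µg/ml, carrying either a scramble control or a short hairpin RNA against Sipa1 with an EGFP reporter, and after 72 h all received lipopolysaccharide (LPS) at 1 µg/ml for 24 h. The genotype is given as WT for scramble and Sipa1 knockdown for the other group, and all samples are in 1 batch. No sample without LPS or without virus was analysed here, so nothing below separates the response to LPS from the resting level. Nothing in the labels ties each sample to its own culture or animal. The p-values therefore reflect only how these samples varied, and that variation may be technical.

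Chemokines act through receptors that span the membrane of leukocytes. Ccl2, Ccl7 and Ccl12 act on Ccr2, which brings monocytes out of the marrow and into tissue. Ccl5 acts on Ccr1 and Ccr3, Ccl9 on Ccr1, Ccl11 on the eosinophil receptor Ccr3, Ccl17 on Ccr4 of T cells and Ccl20 on Ccr6. In mice, Ccl8 acts on Ccr8. In the heart, fibroblasts are a source of Ccl2 during injury and infection, where LPS acts through Tlr4 and the transcription factor NF-kappaB.

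Knockdown left a mean of 41.9% of the scramble Sipa1 level, with no overlap between groups. The libraries held 30930998 to 41839742 reads in genes, and scramble replicate 2 was the smallest. Fibroblast markers were abundant, with a summed level of 21733 to 25073 CPM (read counts scaled to a common library size) over the 10 markers. The most abundant of them were Col1a1, Col1a2 and Col3a1, which encode collagen chains, and which did not pass the test described below. Col3a1 (log2 -0.13, edgeR adjusted p = 0.0961) passed without scramble replicate 2 (0.0255) or knockdown replicate 2 (0.0168). Of the 10 fibroblast markers 4 fell in knockdown and 0 rose, against 15.8% and 16.4% of all genes tested. These 4, named after their values were seen, were the transcription factor gene Tcf21 (log2 -0.84, edgeR adjusted p = 1.11e-11), the receptor genes Pdgfra (-0.30) and Pdgfrb (-0.24), and Dcn (-0.18, 0.0114), which encodes decorin. Dcn was lost without scramble replicate 3 (0.102) or knockdown replicate 1 (0.0631) or 3 (0.0859). In these bulk samples, fewer cells of a type and less RNA per cell cannot be told apart.

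The promoters of the members were compared first, because these genes share a known inducer in LPS. RefSeq's promoter table (GRCm38.p6) held 5 of the 9 measured members, Ccl8, Ccl9, Ccl12, Ccl17 and Ccl20. It held no entry for Ccl2, Ccl5 and Ccl7, which fell, or for Ccl11, which rose. The shares below therefore cover no member that fell, and Ccl17 alone among those that rose. In the 250 bases before the start, the NF-kappaB consensus on either strand was found in 2 of the 5, against 3.90% of 32851 promoters. Read on the gene's own strand alone, it was found in 0 of the 5 and in 2.37% of all. TATAAA on either strand was found in 3 of the 5, against 12.4% of all promoters. The 250 bases below are those of Ccl17, which rose, and of Ccl8, Ccl9 and Ccl20, which did not pass the test. They are written 5′ to 3′ on the gene's strand, with matches to TATAAA and to the NF-kappaB consensus in capitals. They lie at chr8:94810203-94810452 (plus strand), chr11:82114935-82115184 (plus strand), chr11:83578637-83578886 (minus strand) and chr1:83116516-83116765 (plus strand) in that order.
Ccl17: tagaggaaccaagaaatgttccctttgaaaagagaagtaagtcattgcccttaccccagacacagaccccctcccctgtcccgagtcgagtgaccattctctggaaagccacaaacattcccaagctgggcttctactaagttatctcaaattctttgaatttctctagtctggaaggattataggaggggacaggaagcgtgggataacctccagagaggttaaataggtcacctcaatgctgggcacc
Ccl8: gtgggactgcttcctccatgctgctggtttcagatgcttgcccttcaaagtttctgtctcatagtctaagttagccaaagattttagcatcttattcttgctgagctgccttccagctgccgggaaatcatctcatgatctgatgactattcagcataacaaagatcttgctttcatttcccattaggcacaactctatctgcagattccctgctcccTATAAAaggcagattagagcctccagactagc
Ccl9: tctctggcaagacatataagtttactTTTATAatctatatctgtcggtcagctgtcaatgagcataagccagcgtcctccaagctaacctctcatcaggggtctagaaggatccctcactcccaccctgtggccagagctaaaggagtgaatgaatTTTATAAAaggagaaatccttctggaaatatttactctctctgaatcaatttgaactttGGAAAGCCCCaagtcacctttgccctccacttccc
Ccl20: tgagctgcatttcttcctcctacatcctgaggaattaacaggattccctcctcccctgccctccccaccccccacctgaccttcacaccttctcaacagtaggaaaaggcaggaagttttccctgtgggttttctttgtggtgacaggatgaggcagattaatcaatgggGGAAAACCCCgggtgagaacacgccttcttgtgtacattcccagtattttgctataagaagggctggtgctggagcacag

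Ccl20 has an NF-kappaB match that begins 80 bases before its start, and Ccl9 has one that begins 35 bases before. In Ccl9, TATAAA in either direction begins 92, 94 and 224 bases before the start, and the first pair overlap. The TATAAA of Ccl8 begins 32 bases before the start, and Ccl12 has one 31 bases before. Ccl17 holds neither motif in this window, which lies inside the annotated span of the gene, since the table's start for Ccl17 is downstream of the outermost annotated one. TGANTCA, the core of AP-1 sites, occurs in 1 of the 5 promoters (Ccl9) and in 6.75% of all. TTCNNNGAA, the core of STAT sites, occurs in 1 of the 5 (Ccl17) and in 7.02% of all. Both of these motifs read the same on either strand. A missing match says only that these letters are not in the window.

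The chemokine transcripts covered a wide range of levels, and 2 monocyte chemokines held most of it. Levels between genes are compared here in TPM, the authors' values scaled by transcript length. Ccl2 had a mean of 5060.1 ± 101 TPM in scramble and 3343 ± 128 TPM in knockdown (SD, n = 3 each). Its TPM rank among all genes of the table was 8, 8 and 9 in the scramble libraries and 25, 24 and 26 in the knockdown libraries. Ccl7 followed with 1976 ± 72.0 and 1507 ± 98.7 TPM. Of the summed TPM of the 17 CC chemokines in the table, Ccl2 and Ccl7 together made up 95.6%, 95.8% and 95.3% in scramble replicates 1, 2 and 3. In knockdown replicates 1, 2 and 3 they made up 93.2%, 93.3% and 93.1%. The summed TPM of all 17 lay between 7210 and 7460 in scramble libraries and between 5126 and 5302 in knockdown libraries, so the groups did not overlap. Without Ccl2 and Ccl7, the remaining genes summed to 313 to 339 TPM in scramble and 352 to 357 TPM in knockdown.

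Below this pair came Ccl5 at 131 ± 2.44 TPM and Ccl17 at 59.9 ± 4.12 TPM in scramble. In knockdown they stood at 105 ± 5.68 and 109 ± 1.72 TPM, and their ranges over libraries overlapped there. Ccl8 followed at 37.5 ± 2.96 TPM in scramble, Ccl9 at 23.5 ± 0.733 TPM and Ccl20 at 13.6 ± 0.938 TPM, each apart from its neighbours in both groups. Ccl12 and Ccl11 were near the floor of the table, at 2.20 ± 1.02 and 0.665 ± 0.265 TPM in scramble. Their ranges overlapped in knockdown.

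**Figure D1:**
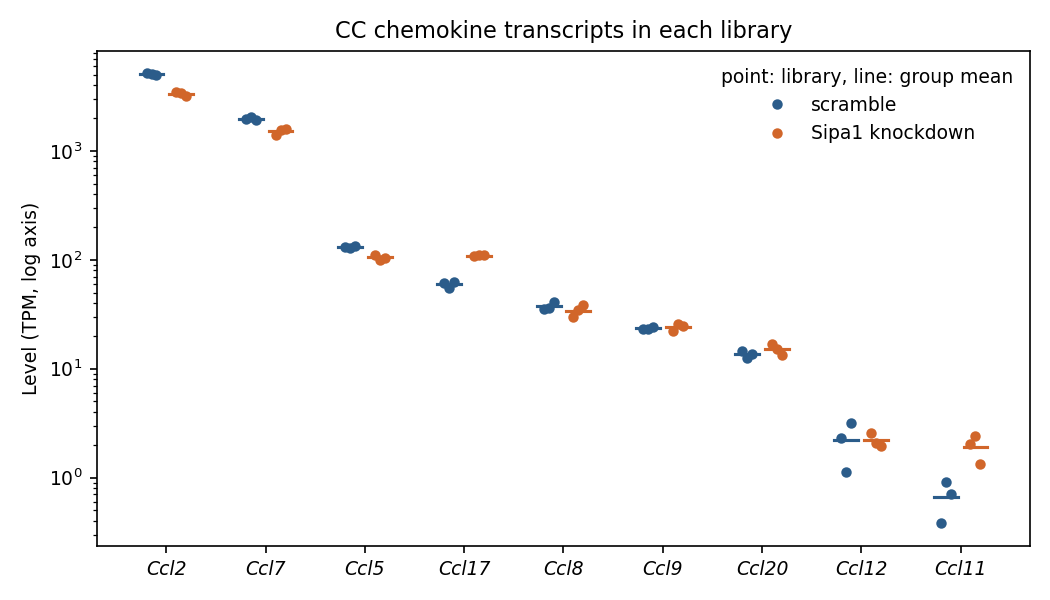
Level of each of the 9 measured CC chemokines in TPM on a log axis, ordered by mean level. Each point is 1 library and each line a group mean (3 libraries per group). Ccl2 and Ccl7 lie above all others, and scramble and knockdown points stand apart for Ccl2, Ccl7, Ccl5, Ccl17 and Ccl11.

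The comparison asks which of these transcripts differ when Sipa1, which switches off the small GTPase Rap, is lowered in LPS-treated fibroblasts. Ccl2, Ccl7 and Ccl5 fell, Ccl17 and Ccl11 rose, and Ccl8, Ccl9, Ccl12 and Ccl20 did not pass the threshold (edgeR quasi-likelihood test, adjusted p under 0.05 over 15954 genes). Thus 3 of 9 members fell and 2 rose. Over all genes tested 32.2% passed, 16.4% higher and 15.8% lower. The median log2 fold change of the 9 members was -0.01, and it was -0.00 over all genes. The groups did not overlap in 5 of the 9 members and in 43.6% of all genes tested, so the share of members that changed is read against a table in which many genes changed.

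Among the Ccr2 ligands, Ccl2 (NCBI gene 20296; GRCm38 chromosome 11, 82035577 to 82037452) is the main monocyte attractant of this family. Its scramble libraries held 72860, 53643 and 72328 reads, or 1826, 1688 and 1749 CPM, for replicates 1, 2 and 3. Its knockdown libraries held 45997, 48664 and 41842 reads, or 1225, 1189 and 1114 CPM. Every knockdown library lay below every scramble library, and the spread within a group was small beside the gap. Knockdown cells retained 67.0% of the scramble level, a log2 fold change of -0.58 (SE 0.049, 95% interval -0.68 to -0.48, edgeR adjusted p = 3.96e-09).

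Ccl7 (NCBI gene 20306; chromosome 11, 82045712 to 82047525) is the next gene along the chromosome and attracts monocytes through the same receptor. It had 692, 681 and 667 CPM in scramble replicates 1, 2 and 3 and 493, 542 and 545 CPM in knockdown replicates 1, 2 and 3. The groups did not overlap, and knockdown replicate 1 was the lowest of the 6. Ccl7 fell to 77.4% of the scramble level (log2 -0.37, SE 0.046, 95% interval -0.46 to -0.27, edgeR adjusted p = 1.35e-06).

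Ccl12 (NCBI gene 20293; chromosome 11, 82101845 to 82103399), a mouse Ccr2 ligand with no direct human counterpart, was barely detected. It had 22, 8 and 31 reads in scramble replicates 1, 2 and 3 and 23, 20 and 18 reads in the knockdown replicates. The scramble libraries spread more widely than the knockdown libraries and enclosed them. The log2 fold change was -0.01 with a 95% interval of -0.76 to 0.73 (edgeR adjusted p = 0.986), which does not exclude a fall as large as that of Ccl2. The longest identical run between the GENCODE transcripts of Ccl12 and the abundant Ccl2 was 17 bases. Over all pairs of members the longest such run was 23 bases, between Ccl2 and Ccl7, in libraries of 100-base reads.

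Ccl8 (NCBI gene 20307, chromosome 11, 82115185 to 82116799) is the last gene with a row in this gene cluster. It had 7.97, 7.68 and 9.14 CPM in scramble replicates 1, 2 and 3, and 6.79, 7.62 and 8.47 CPM in the knockdown replicates. The groups overlapped (log2 -0.12, SE 0.11, 95% interval -0.35 to 0.11, edgeR adjusted p = 0.455). That interval leaves out a fall of the size seen for Ccl2 (log2 -0.58) but not one of the size seen for Ccl5 (-0.30).

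Ccl11 (NCBI gene 20292; chromosome 11, 82057832 to 82062955), eotaxin, lies between Ccl7 and Ccl12 and moved the other way. It had only 8, 13 and 14 reads in scramble replicates 1, 2 and 3, against 36, 47 and 24 reads in the knockdown replicates. Each knockdown library had more reads than every scramble library, at 0.639 to 1.15 CPM against 0.201 to 0.409 CPM. The log2 fold change was 1.55 (SE 0.35, 95% interval 0.82 to 2.28, edgeR adjusted p = 0.00155). Ccl11 passed the filter on low counts through its knockdown libraries, so its presence among the tested genes is not independent of its direction. Without that filter its adjusted p was 0.00231, and the log2 fold change ranged from 0.47 to 1.75 over 16 alternatives, the lowest on log2(FPKM + 1), where a low gene's change is understated.

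Ccl5 (NCBI gene 20304; chromosome 11, 83525778 to 83530518), also called RANTES, attracts T cells and monocytes. Scramble replicates 1, 2 and 3 showed 30.7, 28.3 and 30.9 CPM of Ccl5, and the knockdown replicates 26.2, 23.3 and 23.9 CPM. All 3 knockdown values were below all 3 scramble values. Ccl5 fell to 81.5% of the scramble level (log2 -0.30, SE 0.064, 95% interval -0.43 to -0.16, edgeR adjusted p = 9.80e-04).

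Ccl9 (NCBI gene 20308; chromosome 11, 83572917 to 83578636) is a Ccr1 ligand of mice that is made by macrophages among other cells. Its level was 30.6, 28.8 and 32.1 CPM in scramble replicates 1, 2 and 3 and 29.3, 33.4 and 31.9 CPM in the knockdown replicates. The groups overlapped, and the 95% interval of the log2 fold change, -0.08 to 0.18 around 0.05, was the narrowest among the 4 members that did not pass (edgeR adjusted p = 0.624).

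Ccl17 (NCBI gene 20295; chromosome 8, 94809380 to 94812038), which attracts Ccr4-bearing T cells, rose in every knockdown library. It had 556, 374 and 591 reads in scramble replicates 1, 2 and 3, or 13.9, 11.8 and 14.3 CPM. The knockdown replicates had 917, 1019 and 925 reads, or 24.4, 24.9 and 24.6 CPM, and hardly differed from each other. The fold of the means was 1.85 (log2 0.88, SE 0.076, 95% interval 0.72 to 1.04, edgeR adjusted p = 5.37e-09).

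Ccl20 (NCBI gene 20297; chromosome 1, 83116766 to 83119167), the Ccr6 ligand, had 5.11, 4.22 and 4.79 CPM in scramble replicates 1, 2 and 3. The knockdown replicates had 5.94, 5.35 and 4.69 CPM, so that the third lay within the scramble range. Its log2 fold change was 0.17 (SE 0.13, 95% interval -0.10 to 0.44, edgeR adjusted p = 0.343).

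**Figure D2:**
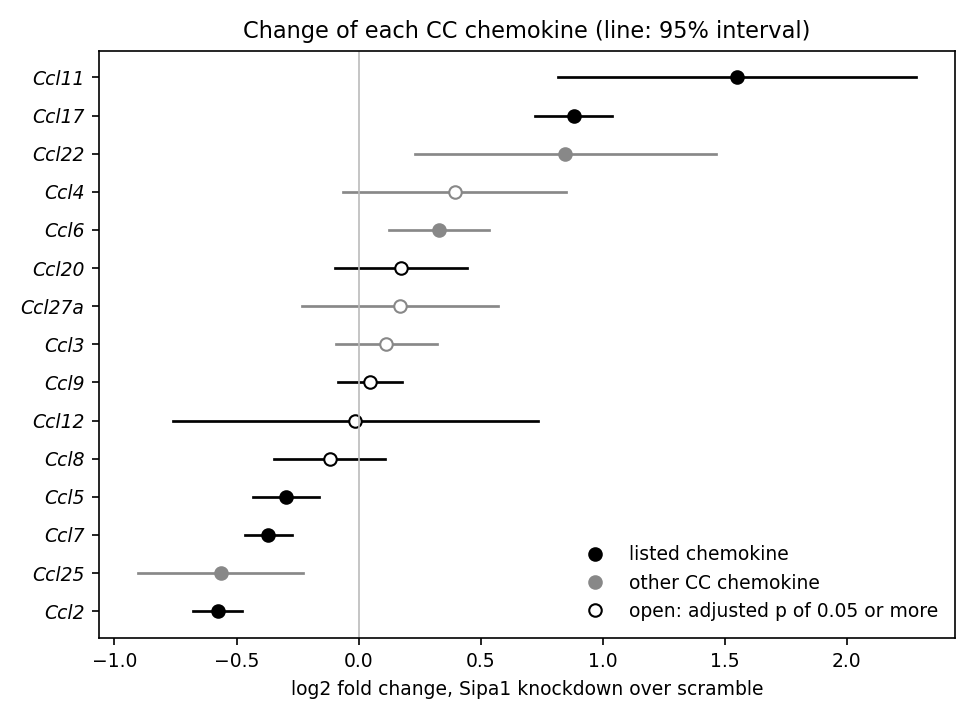
Log2 fold change (knockdown over scramble) of the 9 measured chemokines in black and of 6 other tested CC chemokines in grey, with 95% intervals from the edgeR fit on 3 libraries per group. Filled points passed the adjusted threshold. Ccl2, Ccl7 and Ccl5 lie left of 0, and Ccl17 and Ccl11 lie right of it.

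For each of the 5 members that passed, the exact two-sided permutation test of CPM over the 20 assignments of the libraries gave 0.1, the smallest value that 3 against 3 libraries allow. The authors' deposited table gives signed fold changes of -1.49 for Ccl2, -1.29 for Ccl7, -1.23 for Ccl5, 1.84 for Ccl17 and 2.93 for Ccl11. In the authors' deposited table the adjusted p of these 5 genes is at most 0.00253 and that of the other 4 members at least 0.436. No call of a member crossed the threshold under the alternatives that tested it.

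**Figure D3:**
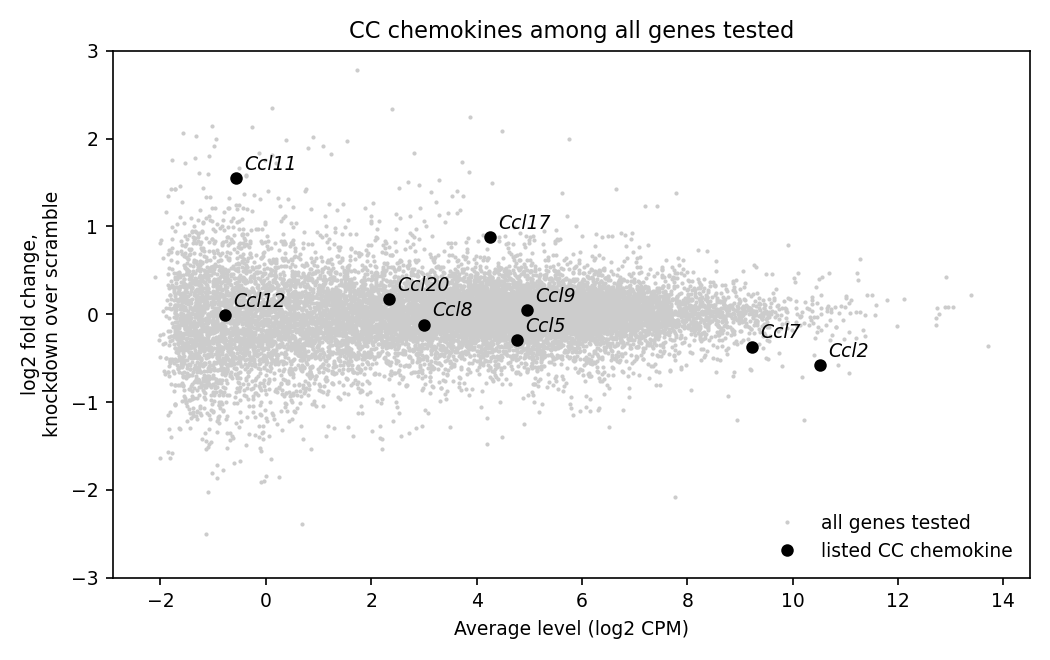
Log2 fold change against average level in log2 CPM for all genes tested (grey), with the 9 measured chemokines in black, from 3 libraries per group. The vertical axis leaves out 4 genes of larger change. Ccl2 and Ccl7 lie at the abundant end and below 0, and Ccl11 and Ccl12 lie at the low end.

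Ratios of read counts within a library do not depend on scaling, so they compare members with each other directly. For every pair the smallest possible exact permutation p was 0.1, and after adjustment over the 9 ratios none was below 0.15. The Ccl17 to Ccl2 count ratio was 0.00763, 0.00697 and 0.00817 in scramble replicates 1, 2 and 3 and 0.0199, 0.0209 and 0.0221 in the knockdown replicates. It was thus 2.77-fold higher in knockdown, without overlap (log2 1.47, exact permutation p = 0.1). Ccl20 and Ccl9 also gained on Ccl2 in all 3 knockdown libraries, by 1.69-fold and 1.54-fold, although neither passed the threshold on its own. Ccl2 itself had a log2 fold change of -0.58, which raises any ratio to it even where the other member is unchanged. These ratios are therefore no separate evidence of a change in Ccl20 or Ccl9.

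Ccl2 lost ground to Ccl8 (log2 difference of the ratio -0.46) and to Ccl5 (-0.28), each without overlap between groups and with an exact permutation p of 0.1. The Ccl2 to Ccl7 count ratio was 2.64, 2.48 and 2.62 in scramble replicates 1, 2 and 3 and 2.48, 2.19 and 2.05 in the knockdown replicates. Knockdown replicate 1 fell inside the scramble range there (log2 difference -0.21, exact permutation p = 0.2). The ratios with Ccl12 overlapped, with exact permutation p of 0.2 for Ccl2 and 0.4 for Ccl7. The Ccl11 to Ccl2 ratio rose by 2.13 on the log2 scale without overlap (exact permutation p = 0.1), on the few Ccl11 reads given above.

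**Figure D4:**
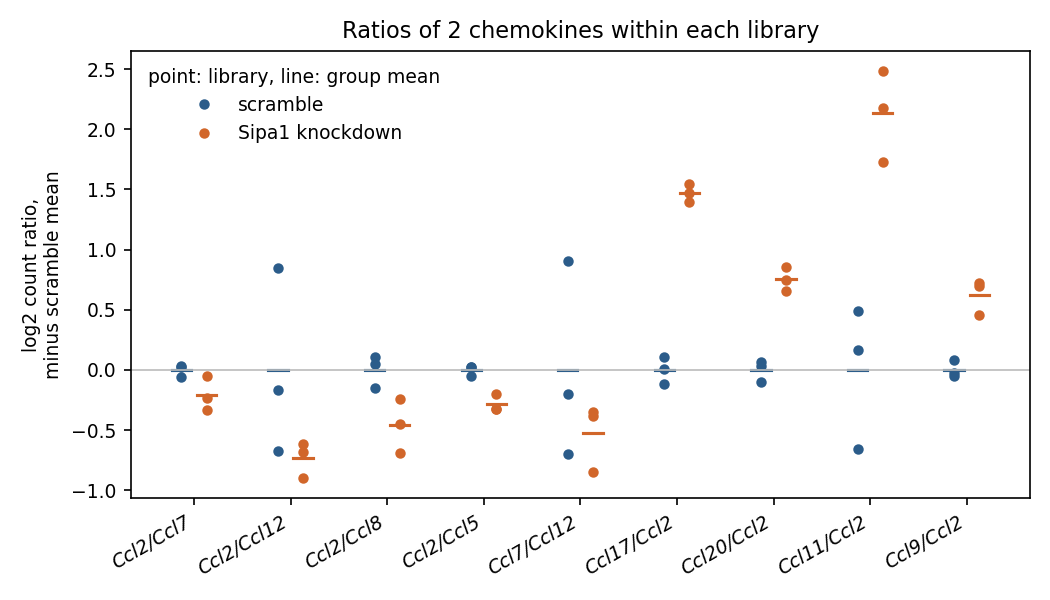
Log2 ratio of the read counts of 2 chemokines in each library, less the scramble mean of that ratio, for 9 pairs. Points are libraries (3 per group) and lines group means. Ratios to Ccl2 of Ccl17, Ccl20, Ccl11 and Ccl9 lie higher in all 3 knockdown libraries than in the scramble libraries, and Ccl2 itself fell.

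Among the 13 other CC chemokines looked up, 8 have a row and 6 passed the count filter. Of these 6, 2 rose and 1 fell (median log2 fold change 0.25), against 16.4% and 15.8% of all genes tested. Ccl22, which shares the receptor Ccr4 with Ccl17 and lies near it on chromosome 8, had 23, 14 and 20 reads in scramble replicates 1, 2 and 3 and 34, 32 and 39 reads in the knockdown replicates. No library of a group overlapped the other group in CPM (log2 0.85, SE 0.30, edgeR adjusted p = 0.0323). The Ccl22 call was lost without scramble replicate 1 (0.0521), 2 (0.0856) or 3 (0.0916), without knockdown replicate 1 (0.0695) or 3 (0.117), and with DESeq2 (0.0744).

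Ccl6, a Ccr1 ligand of mice, rose from 8.44 ± 0.562 to 10.6 ± 1.00 CPM (log2 0.33, edgeR adjusted p = 0.0123). That call was lost without scramble replicate 2 (0.0534) or knockdown replicate 2 (0.0826). Ccl25, the thymic and gut ligand of Ccr9, fell from 4.21 ± 0.700 to 2.83 ± 0.422 CPM (log2 -0.57, edgeR adjusted p = 0.0102), lost without scramble replicate 1 (0.0685) or knockdown replicate 1 (0.0505). Ccl3 (log2 0.11), Ccl4 (0.39) and Ccl27a (0.17) did not pass, and are named here after their values were seen. Ccl3 and Ccl4 overlap on the annotation and Ccl27a has a close copy, so their reads may be split between genes.

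Macrophage transcripts were present in the cultures of both groups. The summed level of the 11 macrophage and monocyte markers with a row, out of 12 listed, was 136 to 152 CPM in scramble and 159 to 163 CPM in knockdown, and Cd163 has no row. Of these 11, 1 rose and 0 fell, against 16.4% and 15.8% of all genes tested, and their median log2 fold change was 0.21. The one that rose was Csf1r, the receptor for macrophage colony-stimulating factor, from 17.0 ± 0.574 to 29.7 ± 0.568 CPM (log2 0.80, edgeR adjusted p = 1.41e-09), whereas the more abundant Lyz2 stood at a log2 fold change of 0.02 and Cd68 at -0.02. Without Csf1r, the other 10 markers summed to 120 to 134 CPM in scramble and 128 to 134 CPM in knockdown, and the groups overlapped. Most of that sum was Lyz2, with means of 84.4 CPM in scramble and 85.7 CPM in knockdown, so it says little about the other markers. Tyrobp (log2 0.40) and Itgam (0.31) lay higher in knockdown without overlap but did not pass, and C1qb stood at -0.10. These last genes were named after their values were seen. The dendritic cell markers with a row were 3 of 7, with a summed level of 7.64 to 8.75 CPM in scramble and 8.89 to 9.99 CPM in knockdown, and 0 of the 2 tested, Zbtb46 and Itgax, passed (unadjusted p under 0.05 in 0 of 2). None of the 7 lymphocyte markers has a row.

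Mesothelial and epicardial markers differed more, at 171 to 174 CPM in scramble and 288 to 292 CPM in knockdown over 8 markers. Of these 8, 5 rose and 0 fell, against 16.4% and 15.8% of all genes tested. Among the 5, Krt8 had 14, 7 and 19 reads in scramble replicates 1, 2 and 3 and 37, 55 and 32 in the knockdown replicates. Krt8 passed the filter on low counts through its knockdown libraries, so its place in this count is not independent of its direction. The counts of the cell types below are read against the same shares. Lrrn4 rose by 1.43 and Upk3b by 0.99 on the log2 scale, while Tbx18 stood at -0.07. Smooth muscle and pericyte markers ran the other way, at 56.1 to 60.5 CPM in scramble and 35.4 to 37.0 CPM in knockdown, with 2 of 5 tested members falling, Cspg4 (-0.89) and Rgs5 (-0.49), and Myh11 at -0.16. Endothelial markers had 2 rising and 2 falling of 8, with Cdh5 at 0.03, Pecam1 at -0.06 and Emcn, one of those that rose, at 0.24. The Emcn call was lost without knockdown replicate 3 (0.0668). Cardiomyocyte markers had 1 rising of 3 tested, with Tnnt2 at 0.44, Ryr2 at -0.02 and Tnni3 at 0.43. The part of any of these marker differences, those of the fibroblast markers included, in the rise of Ccl17, Ccl11, Ccl22 or Ccl6, or in the fall of Ccl2, Ccl7 and Ccl5, was not tested.

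Most receptors for these chemokines have no row in the table used here. Of 16 receptors and scavengers listed, 4 have a row, and Ccr2, the receptor of Ccl2, was not analysed here. Of these 4, 2 fell and 0 rose (median log2 fold change -0.32), against 15.8% and 16.4% of all genes tested. Ackr3, an atypical receptor that scavenges chemokines of the CXC class, fell from 20.5 ± 1.12 to 15.8 ± 0.878 CPM (log2 -0.38, edgeR adjusted p = 3.27e-04). Ccrl2, which binds chemerin, fell from 2.44 ± 0.426 to 1.53 ± 0.196 CPM (log2 -0.66, edgeR adjusted p = 0.0133), lost without scramble replicate 2 (0.0684) or knockdown replicate 3 (0.0600). Ccr1, the receptor for Ccl5, Ccl6 and Ccl9, had a log2 fold change of 0.47 (SE 0.22, edgeR adjusted p = 0.112), and leaving out scramble replicate 3 took it past the threshold (0.0384). The scavenger Ackr1 stood at -0.27 (SE 0.21, edgeR adjusted p = 0.372).

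Lists of genes that carry the LPS signal were counted against the 16.4% of all tested genes that rose and the 15.8% that fell. Of 12 LPS receptor and adaptor genes 3 rose and 3 fell, with a median log2 fold change of 0.01. The receptor gene Tlr4, named after its value was seen, was among those that fell (log2 -0.15, edgeR adjusted p = 0.0410), and its groups overlapped in CPM. The kinase gene Irak1 (log2 0.35, edgeR adjusted p = 3.73e-06) and the adaptor gene Ticam1 (0.44, 8.45e-06) rose. The ubiquitin ligase gene Traf6 (-0.39, 1.60e-04) and the kinase gene Irak4 (-0.28, 0.0111) fell, and Irak4 was lost without scramble replicate 2 (0.0609) or knockdown replicate 3 (0.0522).

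Of 14 NF-kappaB subunit and inhibitor genes 6 fell and 4 rose, with a median of -0.15. Rela, the subunit p65, fell from 96.9 ± 3.88 to 78.6 ± 4.94 CPM (log2 -0.30, edgeR adjusted p = 5.39e-05), and the kinase gene Ikbkb fell by 0.55 on the log2 scale. Nfkbiz, an inducible nuclear regulator of NF-kappaB targets, rose by 0.44, and Ikbkg, the regulatory subunit of the kinase complex, also rose by 0.44.

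Many chemokine transcripts are short-lived, and AU-rich elements in the 3' UTR mark such transcripts for decay by proteins such as those of the Zfp36 family. A list of 11 genes for the control of mRNA decay and stability was counted, and not all of them promote decay. Of these 11, 4 fell, Elavl1 (log2 -0.21) included, and 3 rose, with a median log2 fold change of -0.08. Zfp36l1 fell from 196 ± 2.08 to 131 ± 10.1 CPM (log2 -0.58, edgeR adjusted p = 3.41e-09) and Khsrp by 0.52 on the log2 scale. Zfp36l2 rose by 0.21 and Tial1 by 0.24, the latter lost on FPKM values (adjusted p 0.0779 to 0.105, limma).

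The AU-rich pentamer ATTTA occurs in the 3' UTR of 6 of the 9 members, against 71.1% of 13241 tested genes with a GENCODE 3' UTR of at least 50 bases and 66.7% of those within the members' length range of 165 to 2465 bases. Ccl2 holds 1 copy and Ccl7 holds 2, and both fell, whereas Ccl5, which also fell, and Ccl17, which rose, hold 0. Ccl11, which rose, holds 5 copies, more than Ccl2 or Ccl7. Per kb of 3' UTR the copies were 3.64 in Ccl2, 4.60 in Ccl7, 7.76 in Ccl11, 2.03 in Ccl9, 8.57 in Ccl20 and 29.9 in Ccl12. Ccl5, Ccl8 and Ccl17 hold 0, and the median over the 13241 genes was 1.34 per kb. The longer form TATTTAT occurs in Ccl12 and Ccl20, which did not pass, in 30.9% of all these genes and in 24.2% of those within the members' length range. The sites of Ccl2 and Ccl7 are shown as the members that fell most, beside those of Ccl12 and Ccl20, with the motif in capitals. They lie, in the order shown and all on the plus strand, at chr11:82037207-82037235, chr11:82047256-82047284, chr11:82047415-82047443, chr11:82103277-82103305 and chr1:83118908-83118936 (GRCm38, GENCODE M21).
Ccl2: atattaaacttATTTAacttattgatgtt
Ccl7 site 1: ttaatatttttATTTAattagccatgtac
Ccl7 site 2: gcaaagattttATTTAaaaacttttagga
Ccl12: gggcagtgtgaTATTTATtatgatatcta
Ccl20: gtattttatgtTATTTATagatctgaatt

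In the sense direction of the transcript, GCACAAC occurs in the 3' UTR of 654 of the 13241 genes, with a median log2 fold change of -0.09 against 0.01 for genes without it, and in 0 of the 9 members. GTCGCCC occurs in 188 genes, with a median of 0.17 against 0.00, and in 1 member, Ccl11. These 7-mers were looked up because an earlier analysis of these data had set aside genes that hold them. Their part in the change of Ccl11 was not tested.

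Proteases that trim chemokines and so switch their activity were also counted. Of 13 tested genes 5 fell and 2 rose, with a median log2 fold change of -0.06. The collagenase gene Mmp8 fell by 0.49 on the log2 scale and the cathepsin gene Ctsl by 0.27. The macrophage elastase gene Mmp12 rose by 0.48 (edgeR adjusted p = 2.04e-05). Ctsb passed narrowly at 0.12 (edgeR adjusted p = 0.0477) and was on the other side in 11 of 17 alternatives. These included every single library left out (scramble replicate 1 at 0.0911, 2 at 0.133 and 3 at 0.0911, knockdown replicate 1 at 0.144, 2 at 0.0801 and 3 at 0.0868).

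**Figure D5:**
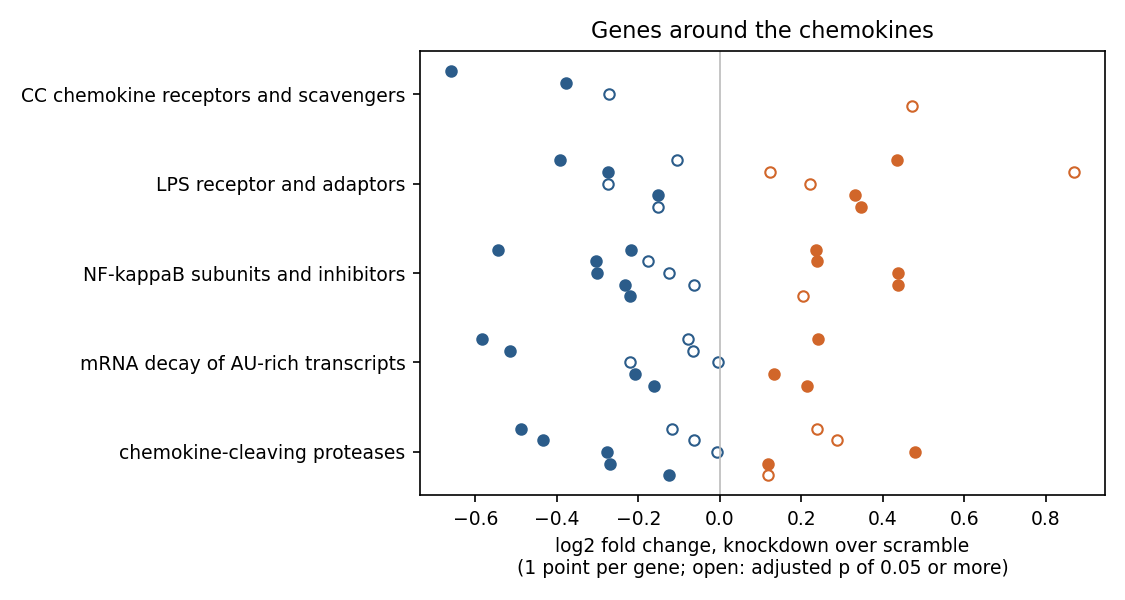
Log2 fold change (knockdown over scramble, 3 libraries per group) of the tested genes of 5 lists around the chemokines, 1 point per gene, with filled points past the adjusted threshold. Each list except that of receptors and scavengers has genes past the threshold on both sides of 0.

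Among the genes whose profile over the 6 libraries was most like that of Ccl2 were Mtmr12, Fads3 and Inhbb. Likeness is the root-mean-square difference of centred log2 CPM, which was 0.030, 0.031 and 0.033 for these 3 among 10418 candidates of at least 5 CPM. The nearest to Ccl7 were Hecw2 (0.023), Dock11 (0.026), Pex2 (0.027) and Prkd3 (0.028). The nearest to Ccl17 were Parm1 (0.039), Mpp2 (0.044), Szrd1 (0.046) and Fam171a1 (0.053). The log2 fold change of these 3 genes near Ccl2 was -0.60 to -0.54, of those near Ccl7 -0.37 to -0.33 and of those near Ccl17 0.85 to 0.93. The choice of genes by profile fixes these values near that of each chemokine.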

How the data were processed

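Poly(A)-selected stranded libraries were sequenced as paired 100-base reads. The submitters' processing notes list HISAT2, StringTie and the build mm10 but no versions, with strand use in counting not given in the sources used here. Per the file headers, the deposited table holds read counts, FPKM, TPM and normalized log2 values by the authors, and their comparison with a signed fold change and test statistic (scores), a mean normalized signal and p-values. The 6 deposited copies of the table are identical and 1 was used.

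Counts were tested with edgeR 4.0.16 (R 4.3.3; TMM, filterByExpr with a minimum count of 10, robust quasi-likelihood test, Benjamini-Hochberg over 15954 genes, threshold 0.05). CPM used TMM-scaled library sizes. The steps were tested on simulated data in which a far smaller share of genes changed than passed here. That simulation therefore does not show how the steps behave when as many genes change as in these samples. Alternatives were limma 3.58.1 on counts (voom) and on log2(FPKM + 1) or log2(FPKM + 0.1), DESeq2 1.42.0, other scaling, other filters, a replicate block and each library left out. Ratios were tested by exact two-sided permutation. Depth was 30930998 to 41839742 reads per library, and counting error is largest for Ccl11 and Ccl12.

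Symbols and coordinates come from RefSeq GRCm38.p6 by NCBI gene ID. Genes named beside the members are up to 2 rising and 2 falling genes of smallest adjusted p per list, all of a list with fewer than 5 tested, up to 3 most abundant markers per cell type, and the 4 genes most like Ccl2, Ccl7 and Ccl17, of which 1 is not reported here. The members and lists were chosen with earlier results of these data known.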

Additional observations from a re-analysis of the deposited data

How the results depend on the processing

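Over 17 alternatives, 3 members fell in each and 2 rose in each except with the filter of at least 1 CPM in 3 libraries, where 1 rose and Ccl11 and Ccl12 were not tested. The same-numbered samples did not deviate together over all genes tested (correlations 0.0041, -0.0091 and -0.010). Differently numbered samples ran from -0.019 to 0.026. Genes of few reads count fully in these correlations, so values near 0 cannot exclude that the numbers pair the samples. With the replicate block 2 members rose and 3 fell, with 2710 genes higher and 2597 lower over all genes. The log2 fold change of Ccl12 turned positive with the replicate block (0.057), DESeq2 (0.00030), limma-voom (0.090), log2(FPKM + 1) with or without the filter (0.032) and log2(FPKM + 0.1) (0.11), and ran from -0.31 to 0.35 with single libraries left out. Ccl9 ran from -0.0061 to 0.098 with single libraries left out and was negative without knockdown replicate 2. Neither gene passed the threshold in any of these. Of the up to 3 most abundant markers per cell type, 5 changed sign with 1 library left out, none past the threshold, and their log2 fold changes ran from -0.095 to 0.011 (Col1a2), -0.035 to 0.082 (Lyz2), -0.089 to 0.014 (Cd68), -0.031 to 0.075 (Cdh5) and -0.28 to 0.18 (Ryr2). Col3a1 also passed with library size only (adjusted p = 0.0381, edgeR), and the Emcn call was lost on log2(FPKM + 1) without a filter (0.0576, limma). Among the neighbouring genes, Wfdc17 turned positive without a filter (0.0047), with the replicate block (0.0022) and on log2(FPKM + 1) (0.0056) and log2(FPKM + 0.1) (0.0065), and Cx3cl1 did so too (0.0045, 0.0018, 0.0058 and 0.0067) and with limma-voom (0.0025). With single libraries left out they ran from -0.045 to 0.043 (Wfdc17), -0.069 to 0.10 (Cx3cl1) and -0.18 to 0.011 (Slc19a3). DESeq2 run on the counts gave the log2 fold change of the authors' deposited table for 9 of 9 members within 0.001. The cause of these changes was not tested. Depth limits Ccl11 and Ccl12, with at most 47 reads per library.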

Other observations

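The chromosomal neighbours of the members were looked up beside them, as the genes between them that are no CC chemokine and the nearest gene with a row on each outer side within the window examined. Between Ccl2 and Ccl8, 81.2 kb apart at their outer ends, the 5 members are the only genes with a row. Gm31522, a lncRNA on the Ccl2 side of this cluster, fell by 0.55 on the log2 scale (SE 0.17, edgeR adjusted p = 0.0200), and Ccl2 fell by 0.58. The Gm31522 call was lost without scramble replicate 2 (0.160), where its log2 fold change was -0.30, without knockdown replicate 2 (0.108) or 3 (0.0933), and on FPKM values (0.231 to 0.294, limma).

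Between Ccl22 and Ccl17 lies Cx3cl1, a membrane-bound chemokine of the CX3C class, which stood at 33.5 CPM in both groups (log2 -0.00, SE 0.072, edgeR adjusted p = 0.994) while Ccl17 rose. On the Ccl22 side, Arl2bp fell by 0.87 on the log2 scale (SE 0.052, edgeR adjusted p = 1.54e-11). On the Ccl17 side, Ciapin1 rose by 0.28 on the log2 scale (SE 0.068, edgeR adjusted p = 0.00239), a call lost on FPKM values (0.367 to 0.440, limma). On the Ccl5 side of the cluster that runs from Ccl5 to Ccl4, Taf15 stood at -0.12 (edgeR adjusted p = 0.0788), passing only with the filter of at least 1 CPM in 3 libraries (0.0489). On its Ccl4 side Wfdc17 stood at -0.00, and within it E230016K23Rik stood at -0.86 (SE 0.43, edgeR adjusted p = 0.135). Slc19a3, beside Ccl20, stood at -0.08. The choice of these genes was by position, made after values were seen.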
